A study of Mus musculus with 6 samples.

Results

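Homeobox genes outside the Hox clusters, together with the T-box genes, encode DNA-binding factors that set out body parts and organs in the embryo. They were taken here as all gene symbols built from a family name and a number for the Tbx, Meis, Pbx, Msx, Dlx, Pitx, Irx, Lhx, Alx, Emx and Barx genes, the sine oculis homeobox genes (such as Six4) and the Nkx genes, which gave 73 of 24063 symbols in the tables, in 13 families. Of these, 72 had a row in every library. Each symbol was represented by the transcript with the highest mean count.

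The 6 libraries came from sphere cultures of MMTV-HER2/Neu mice on the FvB background, in 2 groups of 3. Both groups carry the transgene, whose viral promoter is active mainly in mammary epithelium. Mice aged 14 to 18 weeks with no palpable tumour gave mammary glands for the early lesion (EL) cultures. Animals older than 20 weeks gave the primary tumour (PT) cultures. Both kinds were kept for 7 days without adhesion. Nothing in the labels says how many mice gave the libraries of a group, so a p-value here speaks only of the library-to-library spread, part of which may be technical. The design sets cultures from the stage without a palpable mass against cultures from the overt tumour.

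Homeodomain proteins bind short AT-rich sites, and the TALE subclass (Meis, Pbx and Irx) carries a homeodomain with an extra loop. Meis and Pbx proteins bind DNA together and with Hox proteins, and the sine oculis homeobox proteins (Six4 and its relatives) act with Eya proteins. T-box proteins bind through a domain of their own. In the mammary gland, Tbx3 is needed for the embryonic mammary bud, Msx1 and Msx2 act in the same bud, and several of the other families are better known from limb, skull and connective tissue.

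Total counts were between 69759793 and 85126630 per library. The table of EL replicate 1 breaks off, so its total is too low, and 1 of the 73 symbols, Nkx6-2, has no row there. Replicates differed by more than counting noise. The 10 luminal epithelial markers summed to between 2901 and 2973 CPM (counts per 1000000, scaled by TMM factors) in EL and between 11665 and 11799 in PT. EL spheres also held fibroblast transcripts (12 markers, summed 65472 to 69918 CPM, against 645 to 771 in PT) and endothelial ones (10 markers, 233 to 252 CPM against 3.00 to 3.99). A tissue label of the EL samples names lung beside the mammary gland. The 10 lung epithelial markers summed to between 16.9 and 19.1 CPM in EL and between 122 and 134 in PT. Of the 4 tested, Sftpd and Foxj1 were higher in PT (log2 change 3.16 and 2.87) and 2 did not pass, Napsa at -0.27 among them, while Scgb1a1, Scgb3a2 and Sftpa1 were at 0 in all 6 libraries. Nkx2-1, the homeobox factor that specifies lung epithelium, was at 0 as well, and the part of lung cells in the values was not tested. In such bulk libraries, fewer cells of a type and less RNA per cell cannot be told apart.

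The sequences just upstream of the start sites are shown for 6 of the genes that the results turn on. They are Msx1, which fell, and its relative Msx2, called higher on few counts and with a direction that the count filter fixed. Others are Meis2, which fell, and Meis3, which did not pass the test. The last are Irx2, which rose, and Tbx18, which fell. Each sequence is the 250 bases before the RefSeq start on GRCm38.p6, written 5′ to 3′ on the gene's strand. Capitals mark every match, on either strand, to 4 motifs. The first is the E-box, spelled CAGGTG, and the second the GC box, spelled GGGCGG. The others are the CCAAT box, named for its letters, and the TATA box, searched as TATAAA. The windows lie at chr5:37824586-37824835, minus strand (Msx1), chr13:53472781-53473030, minus strand (Msx2), chr2:116064620-116064869, minus strand (Meis2), chr7:16175145-16175394, plus strand (Meis3), chr13:72628570-72628819, plus strand (Irx2) and chr9:87731261-87731510, minus strand (Tbx18).
Msx1: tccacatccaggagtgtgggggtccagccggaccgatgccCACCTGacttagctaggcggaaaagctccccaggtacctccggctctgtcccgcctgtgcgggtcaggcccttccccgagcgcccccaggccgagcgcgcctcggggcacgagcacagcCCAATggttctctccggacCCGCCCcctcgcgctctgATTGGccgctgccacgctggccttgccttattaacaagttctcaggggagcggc
Msx2: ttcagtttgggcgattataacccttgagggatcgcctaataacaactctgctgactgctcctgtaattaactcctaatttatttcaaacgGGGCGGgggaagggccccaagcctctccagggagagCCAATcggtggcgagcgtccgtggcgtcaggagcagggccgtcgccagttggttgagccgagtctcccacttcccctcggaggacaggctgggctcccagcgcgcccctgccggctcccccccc
Meis2: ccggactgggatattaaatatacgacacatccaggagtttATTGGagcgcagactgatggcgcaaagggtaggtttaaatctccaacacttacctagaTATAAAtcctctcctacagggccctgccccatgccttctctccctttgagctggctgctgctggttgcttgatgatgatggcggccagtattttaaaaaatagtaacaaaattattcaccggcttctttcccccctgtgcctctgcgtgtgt
Meis3: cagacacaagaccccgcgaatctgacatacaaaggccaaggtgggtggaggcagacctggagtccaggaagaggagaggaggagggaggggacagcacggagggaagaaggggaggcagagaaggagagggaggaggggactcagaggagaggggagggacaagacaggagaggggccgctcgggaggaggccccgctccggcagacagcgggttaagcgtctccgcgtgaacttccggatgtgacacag
Irx2: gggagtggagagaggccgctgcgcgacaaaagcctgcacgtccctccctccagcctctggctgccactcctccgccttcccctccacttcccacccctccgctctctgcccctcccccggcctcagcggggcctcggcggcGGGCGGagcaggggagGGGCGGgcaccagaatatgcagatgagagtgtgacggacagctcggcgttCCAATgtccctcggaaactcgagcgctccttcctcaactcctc
Tbx18: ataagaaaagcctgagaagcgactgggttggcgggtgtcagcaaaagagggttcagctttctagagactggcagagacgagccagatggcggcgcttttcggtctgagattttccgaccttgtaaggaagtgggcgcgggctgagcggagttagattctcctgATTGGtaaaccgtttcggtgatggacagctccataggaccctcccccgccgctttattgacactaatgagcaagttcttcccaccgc
The Meis2, Meis3 and Irx2 windows lie within the full extent of their genes, whose annotated start lies further upstream. The Msx1 window held 1 E-box, 1 GC box and 2 CCAAT matches, and the Msx2 window 1 GC box and 1 CCAAT match. The Meis2 window held a TATA box and a CCAAT match and 7 CpG dinucleotides, the Meis3 window none of the 4 motifs and 12 CpG. The Irx2 window held 2 GC boxes, 1 CCAAT match and 19 CpG, more than 80.3% of 32851 windows. The Tbx18 window held 1 CCAAT match and 15 CpG. RefSeq windows were found for 49 of the 73 symbols, and the first listed was used where a gene had several. Among 11 genes lower in PT with a window, 1 held the E-box, 7 the GC box, 6 the CCAAT box and 2 the TATA box. Among 6 higher in PT the counts were 1, 4, 3 and 0. The shares over all windows of this length were 17.2%, 32.7%, 33.8% and 12.4%, in the same order. These matches describe the letters only.

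Of the 72 symbols with a row in every library, 35 had enough counts to be tested, 29 had a few counts and 8 were at 0 throughout. The edgeR quasi-likelihood test called 10 of the 35 higher in PT and 20 lower, at an adjusted p under 0.05 over all 13844 tested genes, and 5 did not pass. The same test called 80.7% of all genes, 39.9% higher and 40.8% lower. The share called among the 35 was thus near the background. Past a 2-fold minimum, 4 of the 35 were higher and 17 lower, against 7.3% and 17.3% of all genes. Over 16-fold falls were seen in 13 of the 35 and in 6.98% of all genes, and none of the 35 rose over 16-fold. The median log2 change, the log2 of the fold change from EL to PT, was -0.75 over the 35 and 0.00 over all tested genes. Of the 35, 6 reached the filter with no PT library at 10 counts (Lhx6, Lhx8, Pitx1, Tbx1, Tbx4 and Tbx5). Another 2 had no EL library there (Msx2 and Pbx4). These 8 could hardly be tested without differing. The same holds for Emx2, which had 7, 6 and 11 counts in PT and reached the filter through EL alone. Emx2 and the 6 are all among the 13 with over 16-fold falls. Among the 25 with a mean count of at least 50, 8 were higher and 14 lower, with a median of -0.69. Of 12492 such genes, 5261 were higher and 4958 lower, with a median of 0.02. Over 16-fold falls were seen in 8 of these 25, Emx2 and Lhx8 among them, and in 684 of the 12492. Without EL replicate 1, 10 of 36 were higher and 19 lower, beside 11283 of 13958 genes called. The groups did not overlap for 27 of the 35, or 77.1%, against 82.7% of all tested genes.

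**Figure D1:**
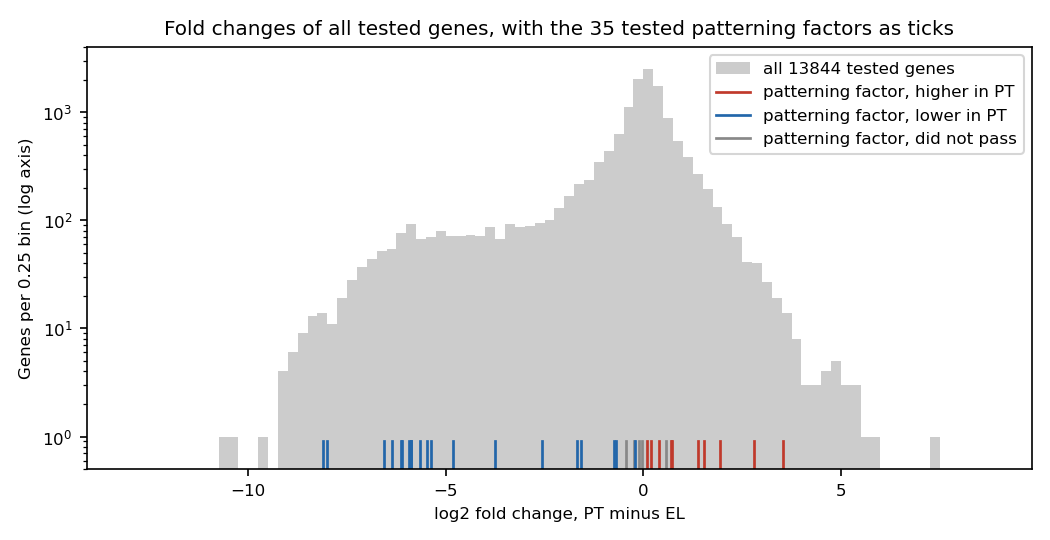
Histogram of the log2 change, PT minus EL, of all 13844 tested genes (grey bars, number of genes on a log axis), with the 35 tested patterning factors as ticks at the base, coloured by call. The ticks reach from -8.12 to 3.54, and 13 of them lie below -4.

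**Figure D2:**
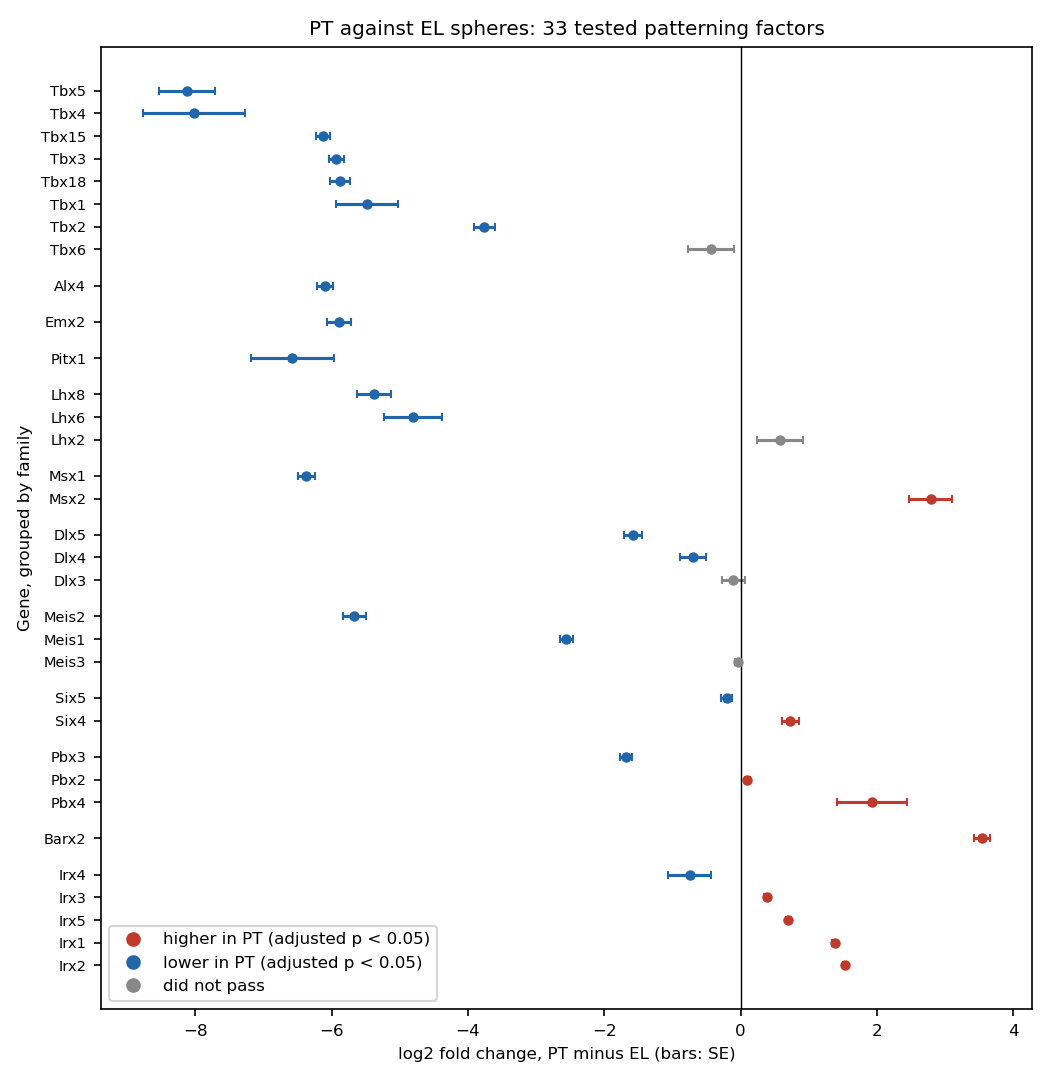
Log2 fold change, PT minus EL, of 33 tested genes with its standard error (bars), grouped by family, red for higher in PT, blue for lower and grey for genes that did not pass. All 8 Tbx genes lie left of 0, 7 of them in blue, 4 of the 5 Irx genes lie right of it, and the Msx and Pbx genes lie on both sides.

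As a family, the Iroquois genes had the highest summed CPM in both groups, and 4 of them rose in PT. Irx1 (chromosome 13, 71958232 to 71963723) stood at 239, 253 and 238 CPM in EL replicates 1 to 3 and at 637, 642 and 623 CPM in PT replicates 1 to 3 (log2 change 1.38, SE 0.03, edgeR-adjusted p = 3.15e-13). Every PT library was far above every EL library. Irx2, its neighbour (chromosome 13, 72624430 to 72634196), stood at 155, 154 and 148 CPM in EL and 434, 445 and 441 in PT (log2 change 1.53, SE 0.03, edgeR-adjusted p = 6.68e-14). The rises of these 2 genes were alike in size, and the groups lay far apart.

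Irx3 and Irx5, which lie together in the other Iroquois cluster, rose less. Irx3 (chromosome 8, 91798511 to 91801654) stood at 88.8, 92.3 and 88.1 CPM in EL and 119.6, 112 and 119 in PT (log2 change 0.39, SE 0.04, edgeR-adjusted p = 3.94e-07). Exons of the antisense gene Irx3os share 124 bases with it, where reads of the 2 genes cannot be told apart without a known strand setting. Irx5 (chromosome 8, 92357796 to 92361456) stood at 40.4, 42.3 and 39.9 CPM in EL and 66.5, 67.02 and 65.8 in PT (log2 change 0.70, SE 0.04, edgeR-adjusted p = 9.41e-10). For both, the lowest PT library lay above the highest EL library, yet neither passed a 2-fold minimum. The log2 ratio of Irx2 to Irx3 CPM within a library was 0.76 ± 0.03 (SD) in EL and 1.91 ± 0.07 in PT, with 3 libraries per group, and that of Irx1 to Irx5 was 2.57 ± 0.01 and 3.25 ± 0.01. These pairs, and the pairs of Msx and Meis genes below, were chosen after their values were seen and were not tested.

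The third gene of each Iroquois cluster was nearly silent. Irx4, known from the heart ventricle, lies 625393 bases from Irx2, and had 32, 17 and 32 counts in EL and 15, 28 and 21 in PT. The groups overlapped, and although edgeR called it lower (log2 change -0.75, SE 0.31, edgeR-adjusted p = 0.0431), the call was lost in 13 of 16 alternatives, among them DESeq2 (adjusted p = 0.0833). Without either of replicates 1 and 3 of EL, or of PT, it was lost too (edgeR-adjusted p from 0.105 to 0.153), but not without replicate 2 of EL or of PT. Irx6, which lies 312833 bases from Irx5, had 20, 5 and 13 counts in EL and 3, 1 and 0 in PT and was under the count filter. On the scale of CPM per kb of transcript, Irx1 was at 103 ± 3.39 in EL and 267 ± 4.16 in PT, Irx2 at 58.1 ± 1.45 and 168 ± 2.16, and Irx4 at 0.259 ± 0.0811 and 0.154 ± 0.0453. The Irx genes together held 52.8 ± 1.03% of the CPM of all 72 genes in EL and 82.2 ± 0.32% in PT, a share that also depends on transcript length.

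The Iroquois rise went along with that of the luminal epithelial markers, all 10 of which rose, with a median log2 change of 1.93. Over all tested genes, 39.9% were higher and 40.8% lower. Kit, a receptor of luminal progenitors, rose by 3.08 (SE 0.04), and the keratin gene Krt18 and the tight junction gene Cldn3 by 2.05 and 2.23 on the log2 scale. Macrophage markers rose too, with 6 of 7 tested higher, whereas of 6 tested hormone-sensing luminal markers 2 were higher and 3 lower. The part of any of these cells in the Irx values was not tested.

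Barx2, a homeobox factor of the Bar class known from gland and muscle development, rose most. Barx2 (chromosome 9, 31846044 to 31913285) stood at 2.01, 1.33 and 2.34 CPM in EL and 21.5, 22.7 and 22.1 in PT (log2 change 3.54, SE 0.12, edgeR-adjusted p = 8.87e-12). The highest EL library was far below the lowest PT library. Barx1 was at 0 in every library. The luminal markers given above rose with Barx2 too, and their part in its value was not tested.

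**Figure D3:**
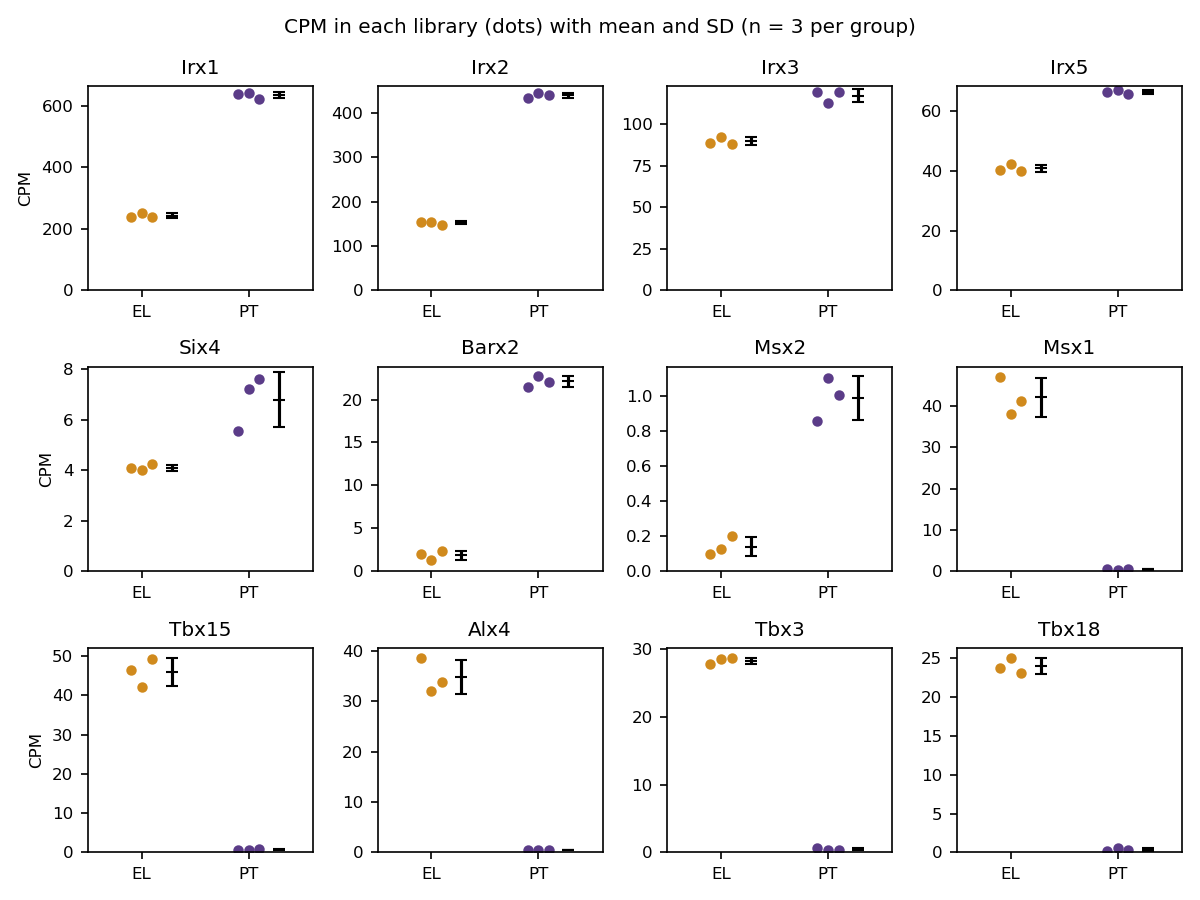
CPM in each library (dots; linear axes that start at 0) for 12 genes, EL in orange and PT in purple, with mean and SD (n = 3 per group). The upper 7 panels show genes that are higher in PT, from Irx1 (243 and 634 CPM) to Msx2 (0.141 and 0.990), and the other 5 genes that lie near 0 in PT.

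Of the 8 T-box genes tested, 7 were lower in PT and none higher, where 40.8% of all tested genes were lower. Tbx1, Tbx4 and Tbx5 reached the filter through EL alone, so their direction was fixed by the filter. Of the other 5, Tbx2, Tbx3, Tbx15 and Tbx18 fell, by log2 changes from -6.13 to -3.76. Tbx15, known from the mesenchyme of skin and skeleton, was the most abundant by count. Tbx15 (chromosome 3, 99240348 to 99354260) stood at 46.4, 42.1 and 49.4 CPM in EL and 0.624, 0.543 and 0.790 in PT (log2 change -6.13, SE 0.11, edgeR-adjusted p = 1.46e-14). Tbx3, the mammary bud factor (chromosome 5, 119670534 to 119684724), stood at 27.8, 28.5 and 28.6 CPM in EL and 0.605, 0.393 and 0.395 in PT (log2 change -5.93, SE 0.11, edgeR-adjusted p = 1.90e-14). In both genes every PT library was under 1 CPM, and the groups did not come near each other. Exons of the antisense gene Tbx3os1 share 115 bases with Tbx3. The same limit applies there and at the shared exons below that lie on opposite strands. Lhx6 and Gm27953, Pitx1 and Gm28760, Meis1 and Gm37818, and Pbx2 and Gpsm3 share exon bases on the same strand. There a strand setting would not separate the reads.

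Tbx18, a factor of ureter and vessel wall mesenchyme, fell from a mean of 23.96 ± 0.998 CPM to one of 0.404 ± 0.196 CPM (± SD over 3 libraries each; log2 change -5.88, SE 0.15), and shares 970 exon bases with D030062O11Rik. Tbx2, the closest relative of Tbx3, fell from 7.04 ± 0.798 to 0.518 ± 0.0241 CPM (log2 change -3.76, SE 0.15). The fall of Tbx2 was the smallest of the 7.

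The genes that lie next to Tbx2 and Tbx3 were lower in PT too. Both neighbours reached the filter through EL alone, so their direction was fixed by the filter. Tbx5, the forelimb and heart factor, begins 111790 bases beyond Tbx3 and had 97, 94 and 107 counts in EL and 0, 0 and 1 in PT. This is a ratio of EL to PT of 396 (exact 95% interval 70.6 to 15704), and the fitted log2 change of -8.12 became -9.80 without PT replicate 3, the library that held the single count. Tbx4, the hindlimb and lung mesenchyme factor, begins 44419 bases beyond Tbx2 and had 32, 21 and 30 counts in EL and 0 in PT. It was at least 36.8-fold lower in PT, against 3 counts over the group. Tbx1, known from the pharyngeal arches, had 40, 37 and 38 counts in EL and 2, 1 and 0 in PT, which is 50.98 times as much in EL (interval 17.01 to 251). Its fitted value of -5.48 became -6.33 without PT replicate 1. These intervals and bounds cover counting error only.

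Tbx6, a factor of the early embryo's segmental mesoderm, was the 1 tested T-box gene that did not pass. It stood at 0.442, 0.327 and 0.623 CPM in EL and 0.254, 0.468 and 0.305 in PT (log2 change -0.43, SE 0.34, edgeR-adjusted p = 0.251), and the groups overlapped. Tbx10, Tbx20 and Tbx21, the last a regulator of T and NK cells, had 5, 4 and 11 counts over all libraries, and Tbx19 and Tbx22 were at 0. Together the 13 Tbx genes held 11.01 ± 0.32% of the CPM of the 72 genes in EL and 0.161 ± 0.008% in PT. Of the T-box genes that the naming rule misses, Mga was tested and rose by 0.14 on the log2 scale (adjusted p = 0.0243), while T, Eomes and Tbr1 had too few counts.

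The fall of the T-box genes went along with that of mesenchymal and vascular markers, where 40.8% of all tested genes were lower. All 12 fibroblast markers fell, with a median log2 change of -6.58, all 10 endothelial markers, with a median of -5.67, and all 7 pericyte markers (6 with library totals), with a median of -3.95. Named members were Col5a1 (-6.86), the fibroblast receptor gene Pdgfra (-5.69), the vascular cadherin gene Cdh5 (-8.26) and Cspg4 (-5.33), a proteoglycan of pericytes. None of the fibroblast or endothelial markers was at 0 in all libraries. The part of these cells in the T-box values was not tested. The same holds for the falls of the Alx, Emx, Pitx, Lhx, Msx and Meis genes that follow.

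Homeobox genes of several families, among them factors of limb and skull mesenchyme, also fell over 16-fold. Msx1 (chromosome 5, 37820491 to 37824585) stood at 47.1, 37.96 and 41.1 CPM in EL and 0.585, 0.393 and 0.539 in PT (log2 change -6.37, SE 0.13, edgeR-adjusted p = 6.22e-14), so that a gene of rank 5 by CPM per kb in EL was nearly lost. Alx4, a factor of limb and skull vault (chromosome 2, 93642434 to 93681341), stood at 38.7, 32.05 and 33.8 CPM in EL and 0.546, 0.449 and 0.521 in PT (log2 change -6.10, SE 0.12, edgeR-adjusted p = 3.82e-14). Emx2, known from cerebral cortex and urogenital tract (chromosome 19, 59458690 to 59465357), stood at 8.55, 8.94 and 9.57 CPM in EL and 0.137, 0.112 and 0.198 in PT (log2 change -5.89, SE 0.17, edgeR-adjusted p = 2.57e-12), and shares 264 exon bases with the antisense gene Emx2os. In each of these 3 genes, all PT libraries were below 1 CPM and the groups did not overlap. Emx2, with 7, 6 and 11 counts in PT, reached the filter through EL alone, so its direction was fixed by the filter.

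Lhx8 and Lhx6, LIM-homeodomain factors of the jaw and ventral forebrain, were lower in PT at lower levels. Lhx8 stood at 4.0, 4.23 and 4.51 CPM in EL and 0.0390, 0.0936 and 0.162 in PT (log2 change -5.38, SE 0.25, edgeR-adjusted p = 3.54e-10). Lhx6 stood at 1.11, 1.03 and 1.74 CPM in EL and 0.0390, 0.0187 and 0.0719 in PT (log2 change -4.81, SE 0.43, edgeR-adjusted p = 2.68e-07). The PT values of both rest on 16 and 7 counts over the group, and Lhx6 shares 104 exon bases with Gm27953. Pitx1, the hindlimb factor, had 25, 40 and 37 counts in EL (0.614, 1.01 and 0.922 CPM) and 1, 0 and 0 in PT (0.0195, 0 and 0 CPM), which is 136 times as much in EL (interval 23.8 to 5409). Its fitted log2 change of -6.57 (adjusted p = 3.94e-07) became -8.28 without PT replicate 1. Pitx1 shares 108 exon bases with Gm28760 and 165 with Gm47071. Lhx6, Lhx8 and Pitx1 reached the filter through EL alone, so their direction was fixed by the filter. Lhx2, a hair follicle and eye factor, did not pass, at 0.295, 0.277 and 0.199 CPM in EL and 0.293, 0.375 and 0.485 in PT (log2 change 0.58, SE 0.33, edgeR-adjusted p = 0.125), where the groups overlapped. Scaled to library totals instead, it passed (log2 change 0.83, adjusted p = 0.0334).

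Msx2 moved against its relative Msx1. Msx2 (chromosome 13, 53466881 to 53472780) had 4, 5 and 8 counts in EL (0.0982, 0.126 and 0.199 CPM) and 44, 59 and 56 in PT (0.858, 1.10 and 1.01 CPM), and edgeR called it higher (log2 change 2.79, SE 0.31, edgeR-adjusted p = 2.60e-06). The groups did not overlap, but the EL level rests on 17 counts. Msx2 reached the filter through PT alone, so its direction was fixed by the filter. The log2 ratio of Msx1 to Msx2 CPM within a library, with 0.05 CPM added to each, was 7.81 ± 0.47 in EL and -0.91 ± 0.44 in PT. Msx1 was thus far above Msx2 in every EL library and below it in every PT library by CPM. Msx3 had 18 counts over all libraries.

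The Meis genes, TALE partners of Pbx and Hox proteins, were split. Meis2 (chromosome 2, 115861264 to 116067537) stood at 16.9, 16.8 and 19.8 CPM in EL and 0.214, 0.318 and 0.503 in PT (log2 change -5.66, SE 0.16, edgeR-adjusted p = 2.13e-12). Meis1 fell from 11.8 ± 0.739 to 2.01 ± 0.131 CPM (log2 change -2.56, SE 0.10), and GENCODE places 2 noncoding genes over parts of its exons. Meis3 (chromosome 7, 16174012 to 16186510) stood at 24.6, 24.5 and 25.5 CPM in EL and 24.1, 24.98 and 23.6 in PT (log2 change -0.04, SE 0.05, edgeR-adjusted p = 0.431). The Meis3 groups overlapped, while those of Meis1 and Meis2 lay apart. The Meis3 value turned to 0.21 with library totals, which called it higher (adjusted p = 0.00101), and to 0.02 with upper-quartile factors. Within a library, the log2 ratio of Meis2 to Meis3 CPM was -0.48 ± 0.10 in EL and -6.01 ± 0.55 in PT. Per kb of transcript, Meis2 was at 4.83 ± 0.449 CPM and Meis3 at 14.4 ± 0.316 in EL, and Meis2 was at 0.0934 ± 0.0395 and Meis3 at 13.99 ± 0.416 in PT. Meis3 was thus above Meis2 in both groups, and the gap was wider in PT.

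Among the Pbx genes, Pbx2 and Pbx4 were called higher and Pbx3 lower, and the difference of Pbx2 was small. Pbx2 stood at 53.8, 50.4 and 50.7 CPM in EL and 55.05, 53.6 and 57.4 in PT (log2 change 0.10, SE 0.04, edgeR-adjusted p = 0.0364), with groups that overlapped and 227 exon bases shared with Gpsm3. The Pbx2 call was lost with RLE factors (adjusted p = 0.0542), with DESeq2 (adjusted p = 0.105) and in 4 of the 6 fits that left a library out, namely EL replicate 2 or 3 or PT replicate 1 or 3 (edgeR-adjusted p from 0.0616 to 0.152).

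Pbx3 (chromosome 2, 34171457 to 34372045) fell from 14.3 ± 0.201 to 4.46 ± 0.547 CPM (log2 change -1.69, SE 0.09). Pbx4 had 1, 4 and 7 counts in EL (0.0246, 0.101 and 0.174 CPM) and 26, 13 and 23 in PT (0.507, 0.243 and 0.413 CPM), and was called higher (log2 change 1.93, SE 0.51, edgeR-adjusted p = 0.00383). Leaving out EL replicate 3 raised the value to 2.59. Its groups did not overlap, but the EL level rests on 12 counts. Pbx4 reached the filter through PT alone, so its direction was fixed by the filter.

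Among the sine oculis homeobox genes, Six4 was called higher and Six5 lower. Six4 (chromosome 12, 73099609 to 73114031) stood at 4.08, 4.0 and 4.23 CPM in EL and 5.56, 7.23 and 7.62 in PT (log2 change 0.73, SE 0.12, edgeR-adjusted p = 0.000121), with every PT library above every EL library. Six5 stood at 20.1, 16.5 and 16.5 CPM in EL and 14.9, 16.6 and 14.8 in PT (log2 change -0.20, SE 0.08, edgeR-adjusted p = 0.0357). The Six5 groups overlapped, EL replicate 1 alone being high, and without that library the call was lost (-0.10, adjusted p = 0.178). It was also lost without PT replicate 1 (adjusted p = 0.108) or PT replicate 3 (adjusted p = 0.122), and with library totals the value was 0.05. Six2, Six3 and Six6 had 26, 3 and 1 counts in all.

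The Dlx genes, which act in placodes, teeth and bone, were low, and 2 of the 3 tested were lower in PT. Dlx5 (chromosome 6, 6877801 to 6882068), a factor of bone formation, stood at 4.67, 4.73 and 3.99 CPM in EL and 1.68, 1.37 and 1.44 in PT (log2 change -1.58, SE 0.14, edgeR-adjusted p = 2.02e-07), with groups that did not overlap. Dlx3, a factor of hair, tooth and placenta, stood at 1.38, 1.81 and 1.52 CPM in EL and 1.27, 1.54 and 1.56 in PT (log2 change -0.11, SE 0.17, edgeR-adjusted p = 0.585). The Dlx3 groups overlapped, and its value turned to 0.14 with library totals and to 0.01 without EL replicate 2. Dlx4, which lies 15151 bases from Dlx3, fell from 1.39 ± 0.0739 to 0.857 ± 0.131 CPM (log2 change -0.69, SE 0.19), and shares 79 exon bases with Dlx4os. Dlx1, Dlx2 and Dlx6 had 12, 5 and 3 counts over all libraries.

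**Figure D4:**
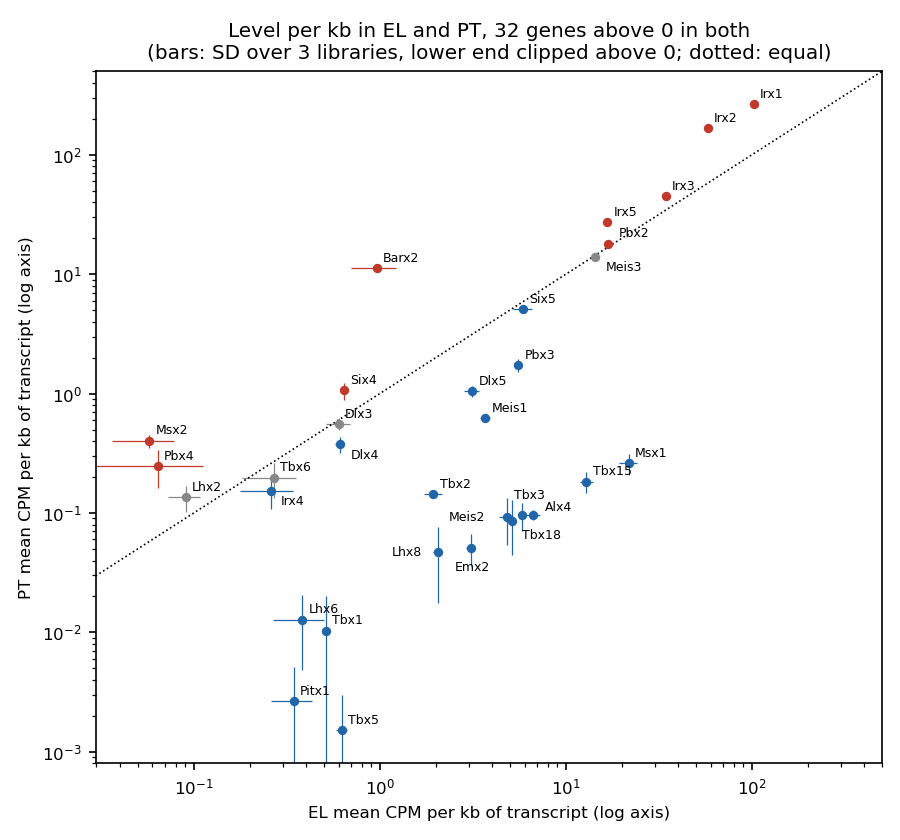
Mean CPM per kb of transcript in EL (x, log axis) and PT (y, log axis) for 32 tested genes above 0 in both groups, with SD over 3 libraries and colours as in the plot of fold changes. Among the genes shown, Irx1, Irx2 and Irx3 are the highest in both groups, and Irx5 comes next in PT but not in EL. Barx2 lies above the dotted line of equal levels, and Msx1, Tbx15, Alx4 and Tbx3 lie far below it.

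By CPM per kb, the highest levels reported in EL were those of Irx1 (103 ± 3.39), Irx2 (58.1 ± 1.45), Irx3 (34.4 ± 0.871) and Msx1 (21.7 ± 2.40), in mean ± SD. In PT they were those of Irx1 (267 ± 4.16), Irx2 (168 ± 2.16), Irx3 (44.9 ± 1.56) and Irx5 (27.1 ± 0.248), and in both groups each of these was apart from the next by more than their SD. Msx1 went from rank 5 of 35 in EL to rank 18 in PT, Tbx15 from 9 to 21 and Alx4 from 10 to 25, whereas Barx2 went from 22 to 8. The order below about 1 CPM per kb rests on few counts.

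Partners of these factors moved in both directions, as did all tested genes, of which 39.9% rose and 40.8% fell. Of 16 tested genes among TALE relatives and partners of the sine oculis proteins, 7 rose and 6 fell (8 and 5 with library totals), with a median log2 change of -0.07. These 16 were near the background shares. Pknox2, a TALE relative of Meis that also binds Pbx, fell from 18.1 ± 1.28 to 1.25 ± 0.0990 CPM (log2 change -3.85, SE 0.10). Tgif1, a TALE repressor, rose by 1.18 (SE 0.03) and the corepressor gene Tle4 by 2.32 (SE 0.07) on the log2 scale. Of 10 tested LIM-homeodomain partners and relatives, 3 rose and 6 fell (4 and 5 with library totals). Ldb2, which bridges LIM-homeodomain proteins, fell by 6.97 on the log2 scale (SE 0.20), Ssbp4, a partner of Ldb proteins, had a log2 change of -0.61 and Lmo4, a LIM-only protein of mammary epithelium, of 1.21.

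Genes of the signals that surround Tbx3 and the Msx genes in the mammary bud also went both ways, with 6 of 19 tested higher and 12 lower (8 and 10 with library totals) and a median of -0.89. Over all tested genes, 39.9% were higher and 40.8% lower. Gli3, a mediator of hedgehog signalling, fell from 43.99 ± 2.19 to 0.900 ± 0.0840 CPM (log2 change -5.61, SE 0.08). Pth1r, the receptor through which the bud instructs its mesenchyme, fell from 27.9 ± 2.56 to 0.310 ± 0.0811 CPM (log2 change -6.47, SE 0.13). Gata3, a luminal factor that is also among the luminal markers, rose (log2 change 1.85, SE 0.05). The fibroblast and luminal markers given above moved with these genes in the respective directions, and their part was not tested.

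The Nkx family was almost silent. Of its 13 genes in all 6 tables, Nkx2-1, Nkx2-4 and Nkx2-5 were at 0 throughout, and the other 10 had between 1 and 11 counts over all libraries. The exception was Nkx6-2, which has no row in EL replicate 1. In the fit of the 5 complete tables, which called 79.2% of 15406 genes, it stood at 4.97 and 5.27 CPM in EL replicates 2 and 3 and at 4.54, 4.01 and 3.34 in PT replicates 1 to 3 (log2 change -0.37, SE 0.13, edgeR-adjusted p = 0.00996). With library totals the call was lost (-0.13, adjusted p = 0.321). All of its counts lay on the row of a noncoding transcript, and its coding transcript was at 0 in these 5 libraries. Exons of Nkx6-2 share 246 bases with Inpp5a on the opposite strand. Without a known strand setting, reads of the 2 genes cannot be told apart.

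Other genes under the count filter are given by their summed counts, EL first and PT second. Among the aristaless-like and empty spiracles genes, Alx1 had 0 and 1 and Emx1 2 and 3. Pitx3 had 2 and 0. Of the LIM-homeodomain genes, Lhx4 had 16 and 4, Lhx5 34 and 17 and Lhx9 20 and 0, while Lhx1 and Lhx3 were at 0. Nkx6-1, a factor of pancreas and spinal cord, had 11 and 0, Nkx2-3 and Nkx3-2 each 3 and 0, Nkx2-2 and Nkx2-6 each 2 and 0, Nkx6-3 2 and 3, Nkx2-9 1 and 1, and Nkx1-1 and Nkx1-2 each 0 and 1. Where a group had 0 counts, a level below 3 counts over its libraries was not detectable at this depth.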

How the data were processed

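Polyadenylated RNA of 3 EL and 3 PT sphere cultures was sequenced. Per the submitters' processing notes, the tools were STAR, featureCounts and DESeq2. The same notes list 2 builds, mm10 and hg19. Versions, settings and strand mode were not given in the sources used here. Each of the deposited tables holds raw counts per RefSeq transcript. Rows present in all 6 tables, with 1 transcript per symbol (the highest mean count), gave 19893 symbols.

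edgeR 4.0.16 in R 4.3.3 (filterByExpr, TMM factors, quasi-likelihood test, Benjamini-Hochberg adjustment over all 13844 genes, threshold 0.05) compared PT with EL. SE is the size of the coefficient divided by the square root of F. The test was checked on simulated counts in which few genes changed, equally often in both directions. Data with most genes called, as here, were not covered. Levels per kb use GENCODE M21 transcript lengths, matched for all 35 tested genes. Positions are RefSeq on GRCm38.p6.

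Genes named with every library's values are the 2 most abundant tested genes of a family, those higher in PT and those not passing. From each other list the 3 with the smallest p are named. The genes and lists were chosen with earlier results of these data known. A few of the genes are counted in the totals but not reported here by name. Alternatives were other scalings and filters, DESeq2 1.42.0, limma-voom (limma 3.58.1), summed transcripts, a replicate block, a 2-fold minimum, the 5 complete tables and each library left out.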

Additional observations from a re-analysis of the deposited data

How the results depend on the processing

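Of 551 alternative values of 33 tested genes, 512 kept their direction and their side of the threshold, 33 lost a call, 1 gained one and 5 changed sign. For 22 genes every alternative that could be run kept both. Among these were Emx2, Lhx6, Lhx8, Msx2, Pitx1, Tbx1, Tbx4 and Tbx5, whose direction the count filter fixed. The 2-fold minimum reuses the main log2 changes, so no direction could change under it. The changes of sign were Meis3 (0.016 with upper-quartile factors, 0.21 with library totals), Dlx3 (0.14 with library totals, and a range of -0.19 to 0.0093 with 1 library left out, the highest without EL replicate 2) and Six5 (0.046 with library totals). The cause was not tested. Library totals shifted all log2 changes by a median of 0.25 and made 65.8% instead of 49.5% of the called genes higher in PT. Calls lost by other alternatives were those of Irx4, Pbx2 and Six5, and a 2-fold minimum also ended those of Dlx4, Irx3, Irx5, Pbx4 and Six4, leaving 4 genes higher in PT and 3401 of all genes called. The median log2 change of the tested patterning factors was -1.25 with no count filter. In that setting 36 of 64 were called, 10 higher and 26 lower, beside 11690 of 16778 genes. The median was -1.57 with summed transcripts (37 tested), and between -1.55 and -0.91 with 1 library left out (36 or 37 tested). Other genes enter the median in these settings. With the replicate block, 29 of the 35 were called, 10 higher and 19 lower, with a median of -0.74, and 11203 of all genes, and the call of Irx4 ended (adjusted p = 0.0632). Deviations from the group means had r of 0.03 to 0.10 between libraries of like number, over 11853 genes. Between libraries of unlike number r was -0.10 to 0.05. With 3 libraries per group, these values cannot show whether the numbers pair the libraries. Nkx6-2 was at -0.13 and lost its call with library totals. With limma-voom, Pitx1, Tbx4 and Tbx5 were at -5.96, -6.21 and -7.52, and with summed transcripts Tbx4 was at -9.0. For the 8 genes with no library at 10 counts in 1 group, depth limits the size of the change.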

Other observations

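Homeobox genes of other families, which the naming rule does not hold, were tested in the same fit. Of 26 with enough counts, 8 were higher and 14 lower in PT (9 and 13 with library totals), with a median log2 change of -1.09 beside 0.00 for all genes. The shares over all tested genes were 39.9% higher and 40.8% lower. Prrx1, a factor of limb and connective tissue mesenchyme, fell from 304 ± 11.9 to 4.09 ± 0.708 CPM (SD, n = 3 each; log2 change -6.21, SE 0.07). Its relative Prrx2 fell from 20.9 ± 0.261 to 0.256 ± 0.0380 CPM (log2 change -6.34, SE 0.11), and Zfhx4, a large zinc finger homeobox factor, from 29.5 ± 1.55 to 0.403 ± 0.106 CPM (log2 change -6.17, SE 0.11). The fibroblast markers fell with them (median -6.58), and their part was not tested.

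With no count filter, edgeR called further patterning factors, all lower in PT and each on few counts. Lhx9 had 10, 4 and 6 counts in EL and none in PT, and Irx6 had 20, 5 and 13 against 3, 1 and 0, with groups that did not overlap. The groups overlapped for Nkx6-1, with 4, 7 and 0 counts in EL and none in PT, and for Lhx4, with 10, 1 and 5 against 1, 2 and 1. They also overlapped for Six2, with 6, 11 and 2 against 1, 3 and 3, and for Lhx5, with 12, 7 and 15 against 2, 4 and 11.

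Other marker lists gave mixed values. Among all tested genes, 39.9% were higher in PT and 40.8% lower. Of 7 tested macrophage markers 6 were higher in PT (summed 61.9 to 80.6 CPM in EL and 155 to 179 in PT), with C1qc at 2.80, C1qa at 2.51 and C1qb at 2.86 on the log2 scale. Of 8 basal epithelial markers 3 were higher and 5 lower (summed 495 to 545 CPM and 603 to 635), with Oxtr at 3.52, Krt17 at 2.79 and Krt5 at -8.49. Of 6 tested hormone-sensing luminal markers 2 were higher and 3 lower (summed 66.0 to 76.3 CPM and 69.4 to 72.3), with Tnfsf11 at -8.54, Wnt4 at -3.93 and Prlr at 0.69. The 3 tested adipocyte markers were lower (summed 370.2 to 440 CPM and 32.3 to 40.8), with Lpl at -3.50, Fabp4 at -3.26 and Pparg at -2.24. T and NK cell markers summed to between 3.91 and 4.15 CPM in EL and between 0.780 and 1.10 in PT, with Il2rb at -4.39 and Cd4 at -1.34. Skeletal muscle markers summed to between 5.93 and 6.72 CPM and between 24.7 and 27.8, with Acta1 at 5.41, Des at -3.53 and Ttn at -0.02, and Myod1, Myog and Myf5 were at 0. Of 4 tested Schwann cell and neuron markers 2 were higher and 2 lower (summed 192 to 206 CPM and 518 to 524), with Sox10 at 1.48, Tubb3 at -5.47 and S100b at 2.65.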
